A study of Mus musculus with 7 samples.

Results

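The subject is open chromatin at 8 genes for WNT ligands of tooth and facial ectoderm, namely Wnt3, Wnt9b, Wnt6, Wnt10a, Wnt10b, Wnt7b, Wnt4 and Wnt5a. They were chosen by name as ligand genes of these tissues, not by any measured value, though with earlier results of these data known. They are 8 of the 20665 autosomal protein-coding genes in the gene table used. A peak was assigned to a gene when it lay in the gene body or within 50 kb of it in GRCm38. After the 7 peak lists were joined into 128642 autosomal regions, 134 regions fell in these windows.

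ATAC-seq cuts and tags DNA with a transposase, so sequenced fragments pile up over accessible sites, and a peak marks such a pile-up. All 7 mouse libraries were made with the Omni-ATAC form of the assay. The ectoderm of the first pharyngeal arches was taken at embryonic day 11.5 (E11.5) and peeled from the mesenchyme after Dispase II, with 2 libraries. Sox2-positive cells, called DESC in the labels, were sorted at postnatal day 2 (P2) from the labial cervical loop of lower incisors of the Sox2-GFP line, in which the endogenous Sox2 promoter drives GFP, also with 2 libraries. The lower incisor, the lower first molar and the upper first molar, each as a whole tooth at P2, gave 1 library each and have no replicate check. Strain, the presence of the reporter in the other samples and the number of animals per library are not given in the sources used here, nor is it stated whether replicates came from separate litters. With 2 libraries against 2, the smallest two-sided exact permutation p is 0.333, so no p-values are given and each library's value is shown.

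WNT proteins are secreted, lipid-modified ligands that bind Frizzled receptors on nearby cells. Canonical signalling through LRP co-receptors stabilizes beta-catenin, which acts with TCF/LEF factors in the nucleus, while other ligands act mainly through ROR receptors and cell polarity. In the face and teeth, ligands from the surface epithelium mark the sites of tooth and hair placodes and drive outgrowth of the facial processes, and loss of WNT10A function in people is a common cause of missing teeth.

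The lists differed in length. Autosomal peaks numbered 80850 and 49719 in ectoderm replicates 1 and 2, 41829 and 38326 in Sox2-positive replicates 1 and 2, 62074 in incisor, 68877 in lower molar and 67193 in upper molar. Each result is therefore given for all deposited peaks and for the 38000 autosomal peaks of each library with the smallest p-values, called equal length below. The read depth behind the lists is unknown, and a gene without a listed peak may still have been accessible below the caller's threshold. Of 6 epithelial markers, each library had 5 or 6 with a peak summit no more than 1 kb from a gene end. Of 6 markers of neural crest mesenchyme, 4 to 6 did so, in ectoderm (5 and 4) as well as in Sox2-positive cells (6 and 5), so these gene ends did not separate the tissues. Of 4 blood markers, 3 had such a peak in both Sox2-positive libraries (Spi1, Tyrobp and Runx1), 1 in each ectoderm library and 2 in each whole tooth. A gene-end peak at Sox2 was listed in all 7 libraries, but at equal length in the ectoderm and Sox2-positive libraries only. At equal length each library had 4 to 6 of the epithelial and 4 or 5 of the mesenchymal markers, and the blood markers stayed at 3 in both Sox2-positive libraries against 1 in each ectoderm library.

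The promoters of 4 members are shown because a peak covered their transcription start site in different sets of libraries. They are the 250 bases before the start, 5′ to 3′ on the gene's strand, from RefSeq (GRCm38.p6), in which 5 of 8 members had an entry and Wnt5a, Wnt7b and Wnt10a had none. Capitals mark matches to the letters of an AP-2 site, GCCNNNGGC, searched on both strands.
Wnt3 (chr11:103773925-103774174, plus strand): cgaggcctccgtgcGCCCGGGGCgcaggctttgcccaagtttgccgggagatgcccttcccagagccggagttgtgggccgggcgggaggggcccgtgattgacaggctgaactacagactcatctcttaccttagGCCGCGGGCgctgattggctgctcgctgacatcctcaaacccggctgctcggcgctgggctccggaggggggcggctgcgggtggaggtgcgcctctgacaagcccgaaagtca
Wnt9b (chr11:103749822-103750071, minus strand): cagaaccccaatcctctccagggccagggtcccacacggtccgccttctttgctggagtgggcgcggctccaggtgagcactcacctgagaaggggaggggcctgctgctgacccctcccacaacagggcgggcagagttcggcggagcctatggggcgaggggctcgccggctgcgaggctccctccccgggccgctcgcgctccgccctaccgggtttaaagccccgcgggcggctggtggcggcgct
Wnt6 (chr1:74771642-74771891, plus strand): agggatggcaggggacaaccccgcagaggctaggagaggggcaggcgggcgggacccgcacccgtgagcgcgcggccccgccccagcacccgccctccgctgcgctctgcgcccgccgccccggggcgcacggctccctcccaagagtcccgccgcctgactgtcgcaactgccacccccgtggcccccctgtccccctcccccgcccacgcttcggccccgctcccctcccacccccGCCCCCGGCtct
Wnt10b (chr15:98778151-98778400, minus strand): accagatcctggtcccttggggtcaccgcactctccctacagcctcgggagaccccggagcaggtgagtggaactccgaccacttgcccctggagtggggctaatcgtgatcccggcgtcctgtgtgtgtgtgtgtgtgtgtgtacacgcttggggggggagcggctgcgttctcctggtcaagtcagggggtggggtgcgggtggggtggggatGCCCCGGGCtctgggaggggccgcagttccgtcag

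The start site of Wnt3 lay under a peak in both ectoderm libraries and in no P2 library, with all peaks and at equal length. This pattern held at 2.69% of 31396 autosomal start sites with all peaks and at 2.37% at equal length. With all peaks an upper molar peak ended at 103774152, just short of the Wnt3 start at 103774175. The start site of Wnt9b lay under a peak in all 7 libraries, as did 36.1% of start sites, and in 6 at equal length, where the incisor peak dropped out (33.7% of start sites lay under a peak in all 7). The start site of Wnt6 was covered in 6 libraries and that of Wnt4, a ligand needed in kidney and ovary, also in 6. The library without a peak over the start was Sox2-positive replicate 1 in each case, where the nearest peaks lay beside the start in the same region. At Wnt10b the start site was covered only in ectoderm replicate 2, by a peak 3230 bp wide. The peak of ectoderm replicate 1 there ended at 98778125, just short of the start at 98778150.

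The searched windows of 4 members held the AP-2 letters: 2 matches before Wnt3, at 236 and 114 bases, and 1 each before Wnt10b at 35 bases, Wnt6 at 12 bases and Wnt4 at 202 bases. The letters were found in 13.7% of 32851 promoters of this length. They are rich in G and C, as are these windows, with a GC content of 68.0% at Wnt3, 79.6% at Wnt6, 66.8% at Wnt10b, 85.2% at Wnt4 and 72.0% at Wnt9b against a median of 52.4% over all promoters. The part of base composition in the matches was not tested. The 250 bases before Wnt9b held none of the 7 motifs searched, and none of the 5 windows held the letters for TCF/LEF (CTTTGAT, in 3.21% of all promoters), SOX (CATTGT, 10.7%), PITX (TAATCC, 6.25%), AP-1 (TGANTCA, 6.75%), RUNX (TGTGGT, 14.0%) or grainyhead (AACCNGTT, 1.79%).

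Ectoderm libraries held more peaks than Sox2-positive libraries at 6 of the 8 ligand genes (Wnt3, Wnt9b, Wnt6, Wnt10a, Wnt4 and Wnt5a), in the sense that both ectoderm counts exceeded both Sox2-positive counts. This was so at 41.4% of all genes. At equal length 3 genes kept this order (Wnt3, Wnt9b and Wnt4), against 20.1% of all genes. No ligand gene had the reverse order with all peaks (3.07% of all genes), and Wnt7b alone had it at equal length (17.6% of all genes). The median difference of group means over the 8 genes was 6.75 peaks with all peaks and 0.5 at equal length, against 1.5 and 0 over all genes. With all peaks the ligand genes had a higher median count than all genes in every library. Their medians were 18.5 and 11 in ectoderm and 5.5 and 8.5 in Sox2-positive cells, against 7, 5, 4 and 4 over all genes. At equal length they were 7.5 and 7.5, and 5 and 8.5, against 4 in each library. Higher counts leave more room for a difference, and their part in these comparisons was not tested. The genes are not independent: Wnt3 and Wnt9b share 101.0 kb of window and Wnt6 and Wnt10a share 93.3 kb, so 42 of the 134 regions lie in both windows of a pair. Wnt7b and Wnt10b lie on the same chromosome but 13188.89 kb apart and share nothing.

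**Figure D1:**
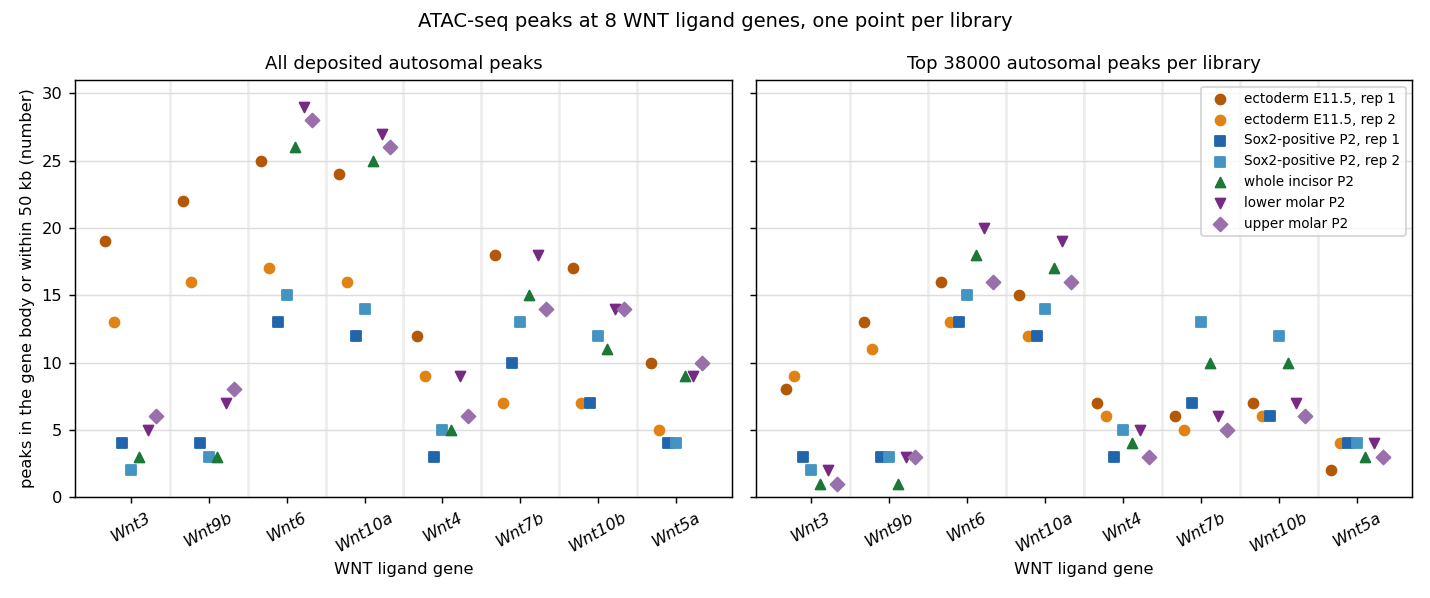
Number of ATAC-seq peaks (y axis) in the body or within 50 kb of each WNT ligand gene (x axis), 1 point per library, with all deposited autosomal peaks at left and 38000 per library at right. At Wnt3 and Wnt9b the ectoderm points stand above all P2 points in both panels, while at Wnt6 and Wnt10a the groups overlap at right.

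The Wnt9b and Wnt3 locus on chromosome 11 showed the widest separation among the 8 genes. Wnt3 encodes a canonical ligand required for the primitive streak and for limb outgrowth, and Wnt9b encodes a canonical ligand required for kidney tubules and for fusion of the upper lip. The gene models overlap by 1.1 kb (Wnt9b chr11:103727362-103775272, Wnt3 chr11:103774175-103818021), and their listed start sites are on opposite strands. At Wnt3 the ectoderm libraries held 19 and 13 peaks, the Sox2-positive libraries 4 and 2, the incisor 3, the lower molar 5 and the upper molar 6. At Wnt9b they held 22 and 16, 4 and 3, 3, 7 and 8 in the same order. Both ectoderm counts lay above every P2 count at both genes. At equal length the counts at Wnt3 were 8 and 9 in ectoderm, 3 and 2 in Sox2-positive cells and 1, 2 and 1 in the incisor, the lower molar and the upper molar, so this order also held with lists of equal length. At Wnt9b they were 13 and 11, 3 and 3, and 1, 3 and 3. The length of DNA under peaks separated the groups as well, at 13.3 and 12.0 kb in ectoderm against 1.53 and 0.864 kb in Sox2-positive cells around Wnt3 with all peaks, and at 8.64 and 9.63 kb against 1.18 and 0.864 kb at equal length.

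Among regions with peaks in both ectoderm and neither Sox2-positive library, the one with the highest ranks covered the start of Wnt3 (chr11:103771098-103774728). It lies across the first bases of Wnt3 and inside the listed extent of Wnt9b, but upstream of the listed Wnt9b start at 103749821 (minus strand). Its peaks covered 3154 and 3588 bp in the ectoderm libraries and ranked at percentiles 97.3 and 98.5 of the signal in their own lists. No Sox2-positive, incisor or lower molar peak was listed there, and the upper molar had a peak of 253 bp at percentile 13.7. A region 7.04 kb beyond the far end of Wnt3 (chr11:103824333-103825783) had peaks in both ectoderm libraries, at percentiles 95.5 and 92.8, and in no P2 library. Its nearest gene end is that of Nsf, a vesicle fusion ATPase gene, at 3.28 kb. On the other side, a region 15.2 kb from Wnt9b and 14.4 kb from an end of Gosr2 (chr11:103711226-103713038) had ectoderm peaks at percentiles 96.0 and 86.9 and no P2 peak.

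Of the 31 regions of this locus, 13 had peaks in the 2 ectoderm libraries and in neither Sox2-positive library, here called ectoderm-only. None had the reverse (5.9% of all regions). The ectoderm-only class held 17.9% of all autosomal regions. In 8 of the 13 no whole tooth had a peak either (11.7% of all regions). The other 5 of the 13 had a whole-tooth peak, against 34.3% of all ectoderm-only regions. At equal length 7 of 17 regions were ectoderm-only, all without any whole-tooth peak, against 12.8% of all regions in ectoderm alone. Only 3 regions were listed in all 7 libraries (14.2% of all regions). They were the start of Wnt9b (chr11:103749184-103750622), a site 5.16 kb beyond Wnt9b (chr11:103721416-103722993) and an end of the neighbour Gosr2. At equal length 1 of 17 was listed in all 7 (19.2% of all regions). At the Wnt9b start the peaks were 1275 and 1241 bp wide in ectoderm, 454 and 499 bp in the Sox2-positive cells, 410 bp in incisor, 491 bp in lower molar and 866 bp in upper molar, so the ectoderm peaks were the widest.

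**Figure D2:**
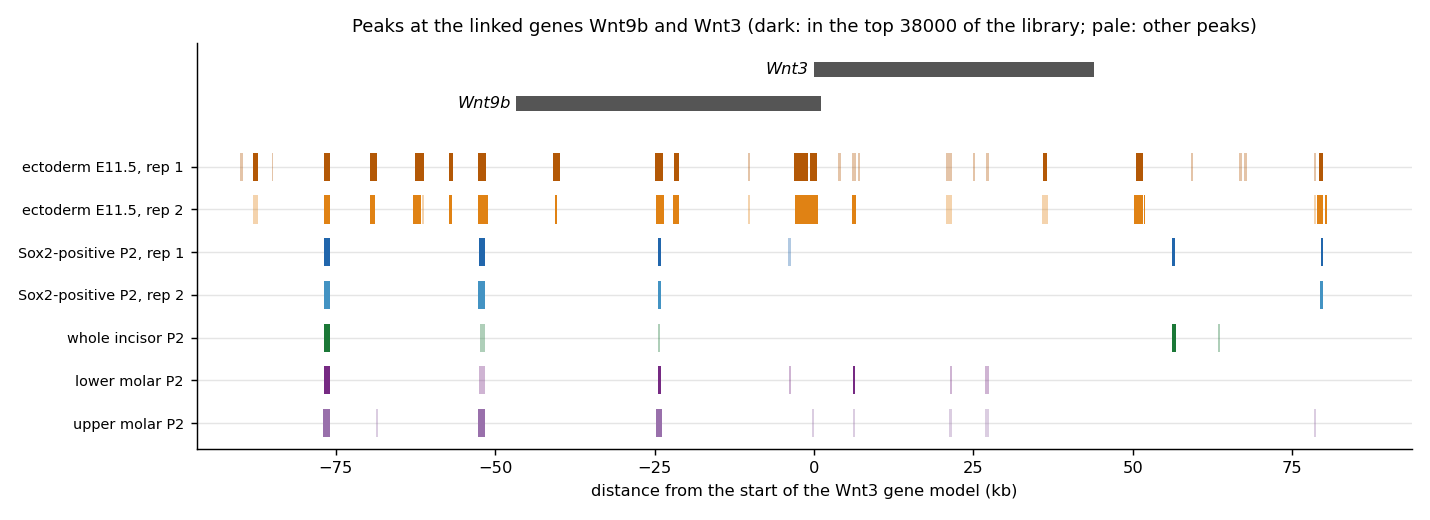
Peaks of each library (coloured blocks, 1 row per library) along the Wnt9b and Wnt3 locus, by distance in kb from the start of the Wnt3 gene model, with gene bodies as grey bars. The blocks at 0 kb are wide in both ectoderm rows and reduced to 1 narrow upper molar block in the P2 rows, while the block near the Wnt9b start, left of 0, is present in all 7 rows.

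At the Wnt6 and Wnt10a locus on chromosome 1, Wnt6 held the most peaks of the 8 genes in every library. Wnt10a encodes a canonical ligand of dental and skin epithelium, and Wnt6 a ligand expressed in many surface epithelia. The gene models lie 6.7 kb apart (Wnt6 chr1:74754342-74785322, Wnt10a chr1:74792019-74804176). At Wnt10a the ectoderm libraries held 24 and 16 peaks, the Sox2-positive libraries 12 and 14, the incisor 25, the lower molar 27 and the upper molar 26. At Wnt6 they held 25 and 17, 13 and 15, 26, 29 and 28. The whole teeth stood above the Sox2-positive cells, and the ectoderm replicates differed from each other by 8 peaks at both genes. At equal length the replicated groups overlapped, with 15 and 12 against 12 and 14 at Wnt10a and 16 and 13 against 13 and 15 at Wnt6. The peaks were broader in ectoderm even then, with 17.1 and 17.8 kb under peaks around Wnt10a against 9.42 and 11.4 kb in Sox2-positive cells. Over the 8 ligand genes the ectoderm libraries had the greater length under peaks at 8 with all peaks (65.5% of all genes) and at 5 at equal length (49.6% of all genes). No ligand gene had the greater length in both Sox2-positive libraries, with all peaks (3.43% of all genes) or at equal length (9.29%).

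Of 30 regions at this locus, 10 were listed in all 7 libraries (14.2% of all regions), among them the start of Wnt6 and a site between the genes. At equal length 7 of 25 were listed in all 7 (19.2% of all regions). The region with the highest signal of the locus in each of the 5 P2 libraries lay 3.4 kb beyond Wnt10a (chr1:74806323-74808827). It ranked at percentiles 97.6 and 94.2 in ectoderm, 98.2 and 98.9 for the Sox2-positive cells, 99.5 in the incisor, 99.5 in lower molar and 99.0 in upper molar, and its peaks covered 2235 to 2451 bp in each library. Both the rank and the length of this site were alike across stage and tissue, but the position of its summit was not. The summit lay at 74808395 and 74808382 in ectoderm and at 74808381 in upper molar. In the Sox2-positive, incisor and lower molar libraries it lay at 74806795 to 74806827. A region inside Wnt6 behaved differently (chr1:74780316-74781624): ectoderm peaks ranked at percentiles 92.3 and 85.4, both molars had peaks at 60.8 and 62.0, and the Sox2-positive and incisor libraries had none. At equal length the ectoderm peaks of this region stayed and both molar peaks dropped out. Its neighbour (chr1:74782138-74784805) was ectoderm-only too and was listed in all 3 whole teeth, but in none of them at equal length. A pattern without ectoderm occurred 1.18 kb inside Wnt10a (chr1:74792825-74793577), where neither ectoderm library and not Sox2-positive replicate 1 had a peak. Sox2-positive replicate 2, incisor, lower molar and upper molar had peaks there at percentiles 21.1, 74.1, 82.4 and 72.4.

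**Figure D3:**
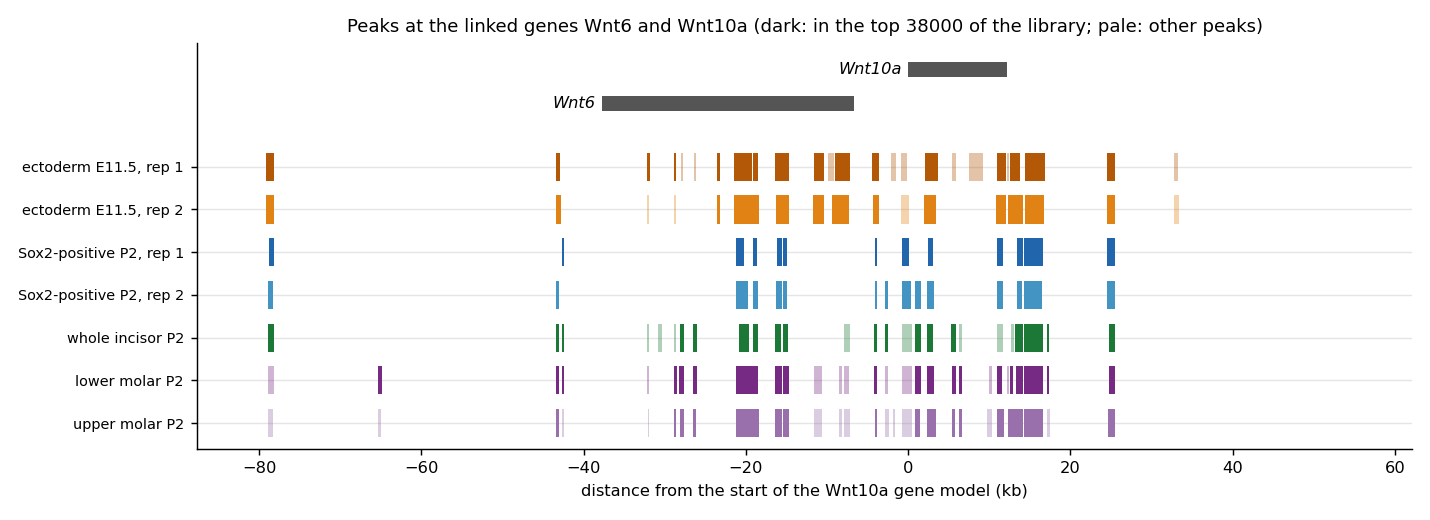
Peaks of each library (coloured blocks, 1 row per library) along the Wnt6 and Wnt10a locus, by distance in kb from the start of the Wnt10a gene model, with gene bodies as grey bars. Of the 30 regions, 10 recur in all rows, and the wide ectoderm blocks at the right end of the Wnt6 bar have no counterpart in the Sox2-positive rows.

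By number of peaks, Wnt7b and Wnt10b did not follow the ectoderm order with all peaks or at equal length. At equal length Wnt5a, Wnt6 and Wnt10a did not either. By length under all peaks both followed it, with 13.2 and 9.51 kb in ectoderm against 4.96 and 9.38 kb in Sox2-positive cells at Wnt7b. At Wnt10b these lengths were 13.9 and 9.0 kb against 4.63 and 8.77 kb. At equal length the lengths overlapped at both genes. Wnt7b encodes a ligand of oral ectoderm whose domain borders the tooth placodes, and Wnt10b a canonical ligand of tooth and hair placodes that also restrains fat cell formation. At Wnt7b (chr15:85535437-85581821) the ectoderm libraries held 18 and 7 peaks, the Sox2-positive libraries 10 and 13, the incisor 15, the lower molar 18 and the upper molar 14. The ectoderm replicates spanned the Sox2-positive values. At equal length ectoderm held 6 and 5, Sox2-positive cells 7 and 13, incisor 10, lower molar 6 and upper molar 5, so the lower Sox2-positive count exceeded the higher ectoderm count by 1 peak. With all peaks the Sox2-positive counts exceeded ectoderm at Wnt7b only when ectoderm replicate 1, with 18 peaks, was left out. At Wnt10b (chr15:98770712-98778206) the ectoderm libraries held 17 and 7 peaks, the Sox2-positive libraries 7 and 12, the incisor 11 and each molar 14, so these groups overlapped too. The equal-length counts there were 7 and 6 in ectoderm, 6 and 12 for Sox2-positive cells, 10 in the incisor and 7 and 6 in the molars, and Sox2-positive replicate 2 and incisor stood above the rest. These were the only members with more equal-length peaks in incisor than in both molars, 2 of 8 against 22.8% of all genes.

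Wnt7b had 3 of the 4 regions with peaks in both Sox2-positive and neither ectoderm library, a class that held 5.9% of all regions and 2.99% of those at the ligand genes. The region 5.59 kb inside the gene (chr15:85575924-85576535) was listed in all 5 P2 libraries, at percentiles 16.9 and 52.2 in Sox2-positive cells, 69.0 in incisor, 56.8 in lower molar and 50.8 in upper molar. A region 29.1 kb outside it (chr15:85610303-85611465) had peaks in all 5 P2 libraries, at percentiles 69.2 to 81.7, in ectoderm replicate 1 at 33.4 and not in ectoderm replicate 2. The higher-coordinate end of the Wnt7b gene model (chr15:85579940-85583922) was occupied in all 7 libraries but to unequal length. Whether the start of the gene lies at this end is not given in the sources used here. In the ectoderm libraries 1 peak covered 3878 and 3848 bp. In the P2 libraries 2 to 4 peaks covered 1068 and 2096 bp in Sox2-positive cells and 1447, 1716 and 1106 bp in the incisor, the lower molar and the upper molar. A site 5.14 kb from the gene (chr15:85529559-85531031) had a peak in each ectoderm and each Sox2-positive library but not in any whole tooth. So had one 35.5 kb from Wnt3 and 31.8 kb from an end of Nsf (chr11:103853090-103854015). These 2 regions are 1.49% of the 134, where the pattern held in 0.0738% of all regions with all peaks. At equal length 1 of 86 regions, the one near Wnt3, had it (0.529% of all regions), since the Wnt7b peak of Sox2-positive replicate 1 ranked too low. In a whole tooth, as in any bulk sample, fewer cells of a type and less accessibility per cell cannot be told apart.

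Across Wnt10b itself (chr15:98775137-98779374) ectoderm peaks covered 2636 and 3230 bp, and Sox2-positive replicate 1 had none although replicate 2 had 3 peaks covering 1467 bp. Incisor, lower molar and upper molar peaks covered 1657, 1114 and 1377 bp. Regions listed in Sox2-positive replicate 2 and incisor but not in Sox2-positive replicate 1 made up 13 of the 134 (9.7%) against 5.19% of all regions, and the converse for replicate 1 made up 2 (1.49%) against 4.87%. At equal length these were 12 of 86 (14% against 6.46% of all regions) and 2 (2.33% against 3.24%). The Sox2-positive replicates therefore differed from each other at these genes, Wnt7b and Wnt10b among them. The window of Wnt10b holds 7 other genes, Wnt1 included, and only 5 of its 21 regions have an end of Wnt10b as the nearest gene end.

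**Figure D4:**
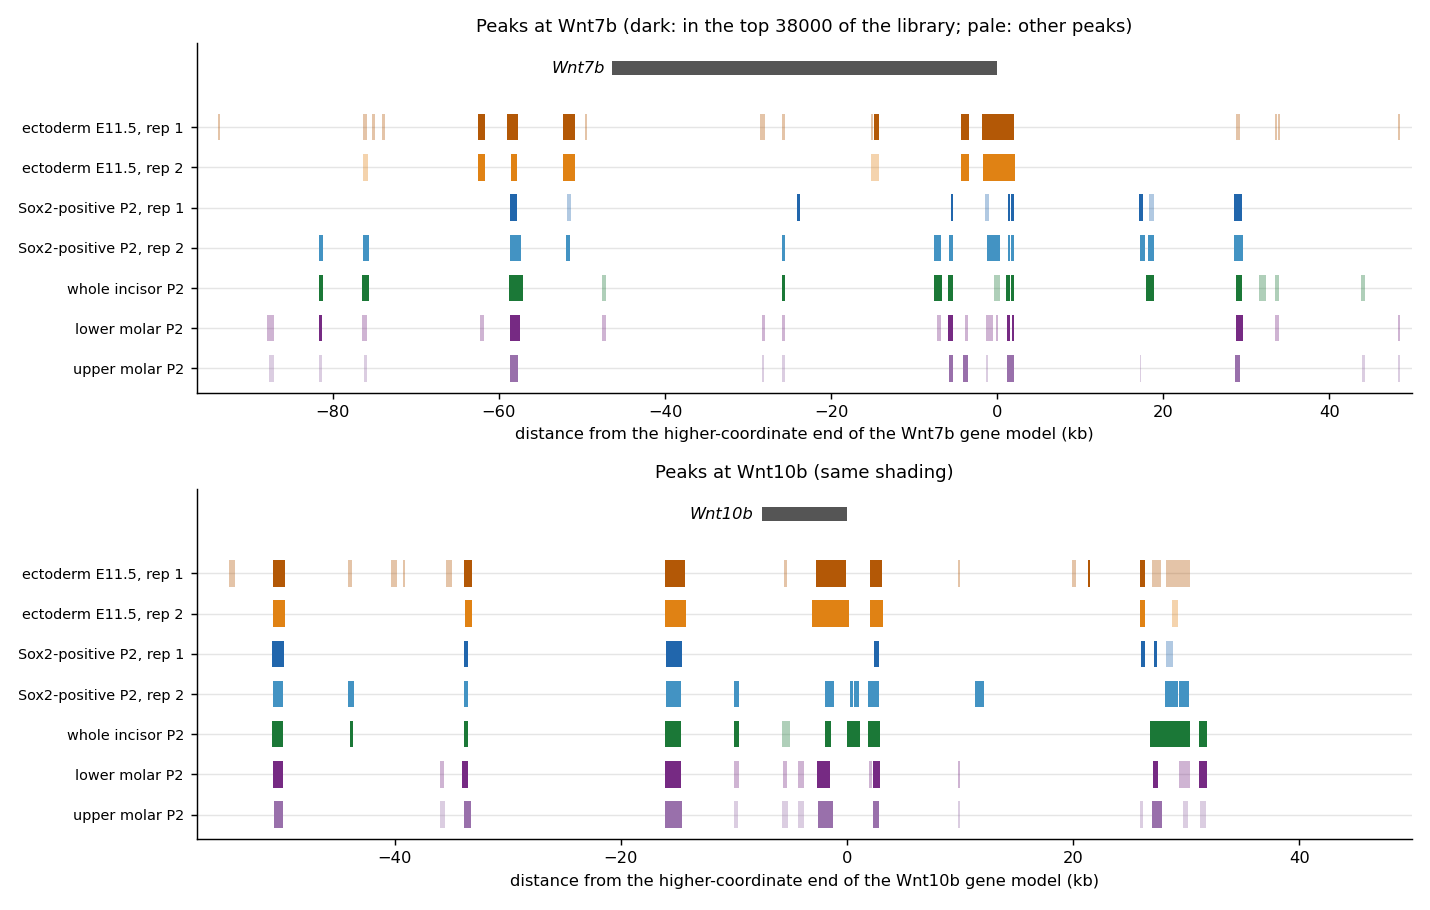
Peaks of each library (coloured blocks, 1 row per library) around Wnt7b (top) and Wnt10b (bottom), by distance in kb from the end of each gene model with the higher coordinate. The ectoderm blocks at 0 kb are wide at both genes, and at Wnt10b the row of Sox2-positive replicate 1 is empty there.

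Wnt4 and Wnt5a had fewer regions, 15 and 11. At Wnt4 (chr4:137277635-137299501) the ectoderm libraries held 12 and 9 peaks, the Sox2-positive libraries 3 and 5, the incisor 5, the lower molar 9 and the upper molar 6. At equal length they held 7 and 6, 3 and 5, 4, 5 and 3, and both ectoderm counts lay above all P2 counts. Of its 15 regions, 6 were ectoderm-only (17.9% of all regions), and 3 of 9 at equal length (15.7% of all regions). A region 8.04 kb beyond the gene (chr4:137307036-137308042) had peaks in both ectoderm libraries alone, at percentiles 81.1 and 70.9. The start (chr4:137276415-137278899) and a site inside the gene (chr4:137282196-137283767) were listed in all 7 libraries.

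Wnt5a encodes a ligand that acts mainly through ROR receptors and drives outgrowth of limb and face, in which mesenchyme is a main source. At Wnt5a (chr14:28504543-28527448) the ectoderm libraries held 10 and 5 peaks, the Sox2-positive libraries 4 and 4, the incisor 9, the lower molar 9 and the upper molar 10. At equal length they held 2 and 4, 4 and 4, 3, 4 and 3, and the mean difference of ectoderm from Sox2-positive cells turned from 3.5 to −1 peaks. A region 47.6 kb from the gene, and nearer to an end of Erc2 at 21.6 kb (chr14:28456275-28457603), was listed in all 5 P2 libraries and not in ectoderm. This region ranked at percentiles 40.6 and 3.66 in Sox2-positive cells, 38.2 in incisor, 84.9 in lower molar and 81.7 in upper molar. With the Wnt7b region above it made 2 of 134 with this pattern (1.49%), against 4.61% of all regions, and at equal length 4 of 86 had it (4.65% against 6.29%). Around the lower-coordinate end of the Wnt5a gene model (chr14:28504075-28508012) peaks covered 3085 to 3245 bp in the whole teeth. They covered 2480 and 2946 bp in ectoderm and 1102 and 331 bp in Sox2-positive cells.

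Over the 6 loci, 30 of 134 regions were ectoderm-only (22.4%; 17.9% of all regions), and 16 of 86 at equal length (18.6%; 15.7%). Those without any whole-tooth peak were 15 (11.2%; 11.7%) and 14 (16.3%; 12.8%). Regions of both Sox2-positive and neither ectoderm library numbered 4 with all peaks, as above, and 6 of 86 at equal length (6.98%; 12% of all regions). Of the 30, 11 also had peaks in both molars (36.7%; 22.8% of all ectoderm-only regions) and 5 in incisor (16.7%; 13.1%). At equal length 1 of 16 was in both molars (6.25%; 10.2%), so the overlap with molars depended on list length. Leaving out ectoderm replicate 2 loosens the rule, so the ectoderm-only count could only stay or rise, and it was 65 (48.5%). The share of all regions moved likewise, to 39.3%. A single library alone held 34 regions (25.4%; 31.3% of all regions), and 25 of these belonged to ectoderm replicate 1, the longest list (73.5%; 58.4% of all such regions). At equal length 17 were found in a single library (19.8%; 25.2%). Regions in all 7 libraries numbered 24 (17.9%; 14.2% of all regions), and 17 of 86 at equal length (19.8%; 19.2%). Regions of the molars alone numbered 7 (5.22%; 6.26% of all regions), and 1 at equal length (1.16%; 4.83%). Regions of the ectoderm and both molars alone numbered 6 (4.48%; 2.36%), and 0 at equal length (1.2% of all regions), and regions of the 3 whole teeth alone numbered 3 (2.24%; 3.94%) and again 3 (3.49%; 1.77%). Of the 134 regions, 49 were centred inside a ligand gene and 88 had an end of a ligand gene as the nearest gene end. Among the others Nsf was nearest to 10 and Arf3 to 7.

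**Figure D5:**
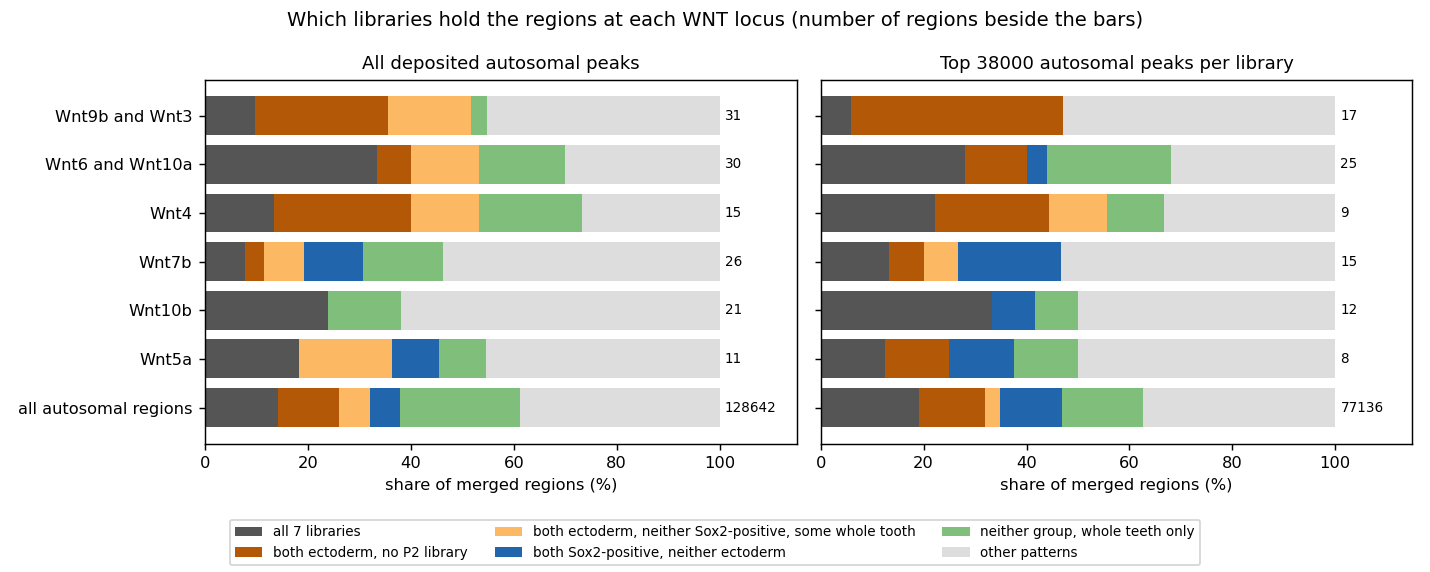
Share of merged regions (x axis, %) at each locus by the libraries that hold them, with all peaks at left, 38000 peaks per library at right, the number of regions beside each bar and all autosomal regions as the lowest bar. The part in both ectoderm and no P2 library is widest at Wnt9b and Wnt3 in the right panel (7 of 17), and the part in all 7 libraries is 10 of 30 at Wnt6 and Wnt10a in the left panel.

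Both molars had more peaks than the incisor at 6 ligand genes with all peaks (Wnt3, Wnt9b, Wnt6, Wnt10a, Wnt10b and Wnt4), against 32.8% of all genes, but the incisor list was the shortest of the 3. At equal length only Wnt9b remained, with 3 and 3 peaks against 1 (21.8% of all genes). The sorted Sox2-positive cells come from the incisor. With all peaks both of their libraries had fewer peaks than the whole incisor at 4 ligand genes (Wnt5a, Wnt6, Wnt7b and Wnt10a; 51.9% of all genes) and more at none (2.56%). Both had fewer equal-length peaks than the whole incisor at Wnt6 and Wnt10a (14.5% of all genes) and more at Wnt3, Wnt9b and Wnt5a (18.6% of all genes), by 1 to 2 peaks at the latter.

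A peak summit within 1 kb of a gene end was listed in all 7 libraries at Wnt4, Wnt5a and Wnt10a, 3 of 8 against 50.3% of all genes, and at Wnt4 alone at equal length (46.5%). No library had one at Wnt9b with all peaks (31.2% of all genes), nor at Wnt9b, Wnt6 and Wnt7b at equal length (36.3%). At Wnt6 and Wnt9b the listed gene extents reach beyond the start sites, and wide ectoderm peaks covered a gene end with their summit farther away, at Wnt7b in both ectoderm libraries and at Wnt3 and Wnt10b in replicate 2.

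Other genes of the pathway were counted in the same way, against the same shares of all genes. Of 11 other ligand genes, 6 had more peaks in both ectoderm libraries (41.4% of all genes) and none in both Sox2-positive libraries (3.07%). Wnt1, among the 11, lies in the window of Wnt10b and shares peaks with it. At equal length Wnt8a alone kept the ectoderm order (5 and 6 against 1 and 2), as did 20.1% of all genes. Wnt11 alone had the reverse (4 and 5 against 9 and 7), as did 17.6% of all genes. Of 15 autosomal genes for secretion and reception, 8 had the ectoderm order with all peaks (41.4% of all genes) and Lrp5, a canonical co-receptor, the reverse (3.07%). At equal length 6 of the 15 had the ectoderm order (20.1% of all genes), namely Fzd1, Fzd3, Fzd4, Fzd6, Fzd10 and the co-receptor Lrp6. The reverse held at 7 (17.6% of all genes), namely Fzd2, Fzd5, Fzd7, Fzd8, Lrp5, Ror1 and Ror2. The co-receptors differed in direction: Lrp6 had 10 and 9 peaks in ectoderm against 5 and 2, and Lrp5 had 7 and 8 against 11 and 15. The median difference of group means was 4.0 peaks over the other ligand genes and 3.5 over the secretion and reception genes with all peaks, against 1.5 over all genes. At equal length it was 0 and −1, against 0 over all genes. A gene-end peak in all 7 libraries was present at 13 of the 15 secretion and reception genes and at 2 of the 11 other ligand genes (50.3% of all genes), and at equal length at 12 and 1 (46.5%).

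The genes most like each member were those with the smallest sum of absolute differences in equal-length peak counts over the 7 libraries, among autosomal genes over 200 kb away. For Wnt3 these were Foxe1, a transcription factor gene of thyroid and palate, and Ikzf2, each with a sum of 4 peaks. Foxe1 held 9 and 9 peaks in ectoderm, 3 and 1 in Sox2-positive cells and 2 in each whole tooth. For Wnt9b the nearest was Frmpd1 (5), for Wnt4 Parp16 and Tnc (2 each), for Wnt6 Actn4 (8), for Wnt10a 2900026A02Rik (7), for Wnt7b Vdac1 (4), for Wnt10b Grm4 (3) and for Wnt5a 4930563M21Rik and Prkra (1 each). Small counts such as those of Wnt5a are matched by many genes, 22 of which differed from it by at most 2 peaks in all.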

How the data were processed

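ATAC-seq peaks of 7 libraries in 5 groups were analysed, with groups and replicate numbers taken from the sample titles. The authors deposited 1 peak list per library. Per the submitters' processing notes, FastQC, Trimmomatic, Bowtie2, deepTools and Genrich were used with build mm10. Versions, options and roles are not given in the sources used here. In the deposited lists, the signal of a peak is, in Genrich's usual output, the area under its significance curve, and was at least 200.0. The significance is deposited as a −log10 p-value, the lowest kept at equal length being 2.94 to 4.79. The deposited score column was not used, and summits came from the deposited offset. Nothing in the files normalizes these values between libraries, so they served only to rank or filter within a list. The lists hold no read counts, and no count test was possible.

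Peaks on the 19 autosomes were counted where at least 1 bp lay in a gene body or within 50 kb, and lists were merged into regions where peaks shared at least 1 bp. Genes and promoters came from RefSeq (GRCm38.p6), in which the gene table has extents without exons or strand, so exons and introns are not stated. All 8 members were named. Regions were named by their signal percentile within a class, and a few further ones after their values were seen, such as those in ectoderm and Sox2-positive cells alone. Members and lists were chosen with earlier results of these data known. Scripts (Python 3.11.15, pandas 2.3.3, numpy 2.4.6) were checked on simulated peaks. Alternatives covered list length, ranking, threshold, windows, overlap and left-out replicates.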

Additional observations from a re-analysis of the deposited data

How the results depend on the processing

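The count of ligand genes with more peaks in both ectoderm libraries was 6, and 3 with 38000 peaks per library by p-value or by signal. It ranged from 6 to 8 when a replicate was left out, and was 2 of 6 loci with linked pairs joined at equal length, an alternative chosen after seeing the data. The reverse count was 0, became 1 by p-value, by signal and with pairs joined at equal length, and ranged from 0 to 1 with a replicate left out. The count with more peaks in both molars was 6, became 1 by p-value, 2 by signal, 3 with the 50% of peaks with the smallest p-values, and 1 with pairs joined at equal length. Ectoderm-only regions numbered 30 of 134 (17.9% of all regions were of this class), became 16 of 86 by p-value (15.7% of all), and ranged from 31 to 65 of 134 with a replicate left out (18.4% to 39.3% of all). Sox2-positive-only regions numbered 4 of 134 (5.9% of all), became 1 of 71 with the 50% of peaks (4.54% of all), 8 of 216 with 100 kb flanks (5.9%) and 9 of 177 with 200 bp windows at summits (6.06%), and ranged from 4 to 12 of 134 with a replicate left out (5.94% to 10.8%). Regions in all 7 libraries numbered 24 of 134 (14.2%), became 10 of 71 with the 50% of peaks (17.3%) and 11 of 134 where 50% of a region had to be covered (8.53%). Ligand genes with a gene-end peak in all 7 numbered 3, became 1 by p-value, 0 with the 50% of peaks and 0 within 500 bp. The mean difference at Wnt5a turned from 3.5 to −1 peaks by p-value and was 0.5 by signal. At Wnt7b it turned from 1 to −4.5 by p-value and −5 by signal. At Wnt10b it turned from 2.5 to −2.5 and −3. The groups already overlapped at Wnt7b and Wnt10b with all peaks. Of 77 alternative counts, 54 stayed within 1.5 times. Shorter lists hold fewer peaks by construction. Leaving out a replicate loosens the rule for a call, so those counts could only stay or rise and do not check the result. The cause of the other shifts was not tested. No paired analysis was possible because the labels do not say that equal replicate numbers pair libraries and the counts come from no test. Depth limits all of them, since a missing peak may be a missed call.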
